A study of Mus musculus with 6 samples.

Results

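The response of wild-type (WT) mouse embryonic fibroblasts to transfected DNA was read from a pair of arrays, 1 of cells transfected with ISD, a synthetic interferon-stimulating DNA duplex, and 1 of mock cells. They are 2 of the 6 arrays of a series on self-DNA and the adaptor STING, in which cells lacking Trex1 (TKO) and cells lacking both Sting and Trex1 (STKO) were profiled in the same way, 1 array a group. Cells came from day 13.5 embryos of a C57BL6/129Sv background and were kept in DMEM with serum; the DNA dose was 4 µg/ml and cells were harvested 6 h later, while the labels do not say what mock cells received. Of the 45281 probes on an array, 16666 were taken as members, those with a detection fraction above 0.99 (here called detected) on at least 1 of the WT arrays; the fraction was taken as the part of the array's negative controls that is dimmer than the probe. Of these, 13999 were detected on both arrays, 489 on ISD alone and 2178 on mock alone. At the threshold, 184 ISD probes with intensities of 115.9 to 117.8 lay just inside, at a fraction of 0.99038, and 152 with intensities of 114.4 to 115.8 lay just outside, at 0.98932. On mock, 469 probes at 98.9 to 102.5 lay just inside and 9 at 98.9 just outside. With 1 array a side there is no spread between replicates to set a difference against, so every difference below describes these arrays and carries no test.

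DNA in the cytosol of a mammalian cell is bound by the enzyme cGAS, which makes a cyclic dinucleotide that activates STING. STING then recruits the kinase TBK1, which activates the factor IRF3, and NF-kB is activated alongside. These factors switch on interferon beta and inflammatory cytokine genes, and secreted interferon acts back on the cells through its receptor and JAK kinases to switch on a large set of antiviral genes. The exonuclease TREX1 clears cytosolic DNA and so holds this pathway down.

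The labels did not agree among themselves. Titles name both arrays WT, while the genotype field of both reads Sting -/-. That field is Sting -/- on TKO mock too, and Sting +/+ on TKO ISD and on each STKO array, so it goes against the STKO titles as well. The groups here follow the titles, and every value given for WT or STKO rests on them. The Sting1 probe had an intensity of 500.8 on WT ISD and 224.6 on WT mock, against 272.1 and 195.6 on the TKO arrays and 113.6 and 117.5 on the STKO arrays, all of them detected. The Trex1 probe that is brightest over the 6 arrays had 6386.4 on WT ISD and 1088.3 on WT mock, against 848.7 and 732.8 in TKO and 378.9 and 257.5 in STKO. A second Trex1 probe had 4558.3 and 690.9 in WT and at most 467.8 on a knockout array, and another was detected on none. Both genes were thus brightest on WT ISD, and where the probes lie relative to the deleted parts is not known, so these values do not settle the genotype.

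The cell type was checked with marker genes. All 11 fibroblast markers were detected on WT mock and 10 of them on WT ISD, Lum being the exception. Col1a1, a chain of type I collagen, had an intensity of 3958.7 with ISD and 4112 in mock, and Vim, the intermediate filament of mesenchymal cells, had 8681.1 and 10891.3. Of 11 macrophage markers with a probe, 10 were also detected on both WT arrays, among them Lyz2 (lysozyme; 39308.2 with ISD and 34258.5 in mock), Adgre1 (the F4/80 antigen; 14744.4 and 15406.7) and Csf1r (the receptor for a macrophage growth factor; 7556.5 and 11098.9). The summed intensity of these 10 was 110101 with ISD and 110824 in mock, and 98960.3 to 117048 on the knockout arrays. The marker left out was Fcer1g, a signalling chain of immune receptors, not detected on either WT array (76.7 with ISD and 61.6 in mock) and at 31168.1 to 34891.4 on the knockout arrays. The arrays labelled as fibroblasts thus carried macrophage transcripts at high intensity. In bulk RNA, a change in the number of cells of a type and a change in RNA per cell cannot be told apart. Between the WT arrays Ptprc, the leukocyte antigen CD45, was the 1 macrophage marker 2-fold apart (log2 difference 1.08), and Pdgfra, a growth factor receptor of fibroblasts, the 1 fibroblast marker (log2 difference -1.14). The part of macrophages in the results below was not tested. Endothelial, epithelial and neural markers were detected for at most 1 gene each, and no lymphocyte or erythroid marker was detected. Of the muscle markers Acta2, smooth muscle actin, which activated fibroblasts also make, was bright on both arrays (43747 with ISD and 41117.7 in mock).

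ISD went with a broad and lopsided change. Differences below are on the scale of background-corrected, quantile-normalized log2 intensity, ISD minus mock, and a gene is read by the probe that is brightest over all 6 arrays. Of 9506 genes measured, 695 were 2-fold or more higher with ISD (7.31%) and 579 were 2-fold or more lower (6.09%). Toward larger sizes the increases took over. At 3-fold or more, 378 genes were higher and 128 lower; at 8-fold or more 127 were higher and 10 lower. At 16-fold or more the counts were 62 and 2, the first of them 0.652% of the genes measured, and 14 genes were 64-fold or more higher with none lower. At 1.5-fold the order was turned, with 1165 genes higher and 1645 lower. The 1st and 99th percentiles of the probe differences were -1.65 and 3.31, and the quartiles -0.42 and 0.21, so the bulk of the probes leaned slightly to the negative side, with a median of -0.13, and the positive tail was the longer.

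**Figure D1:**
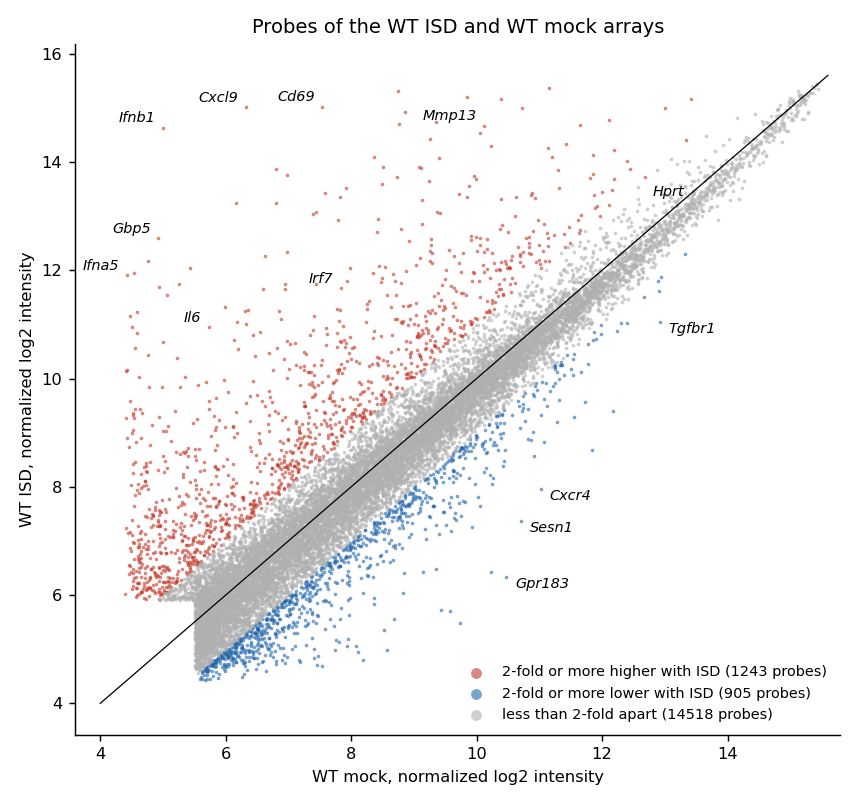
Normalized log2 intensity of each of the 16666 probes on WT ISD (vertical axis) and on WT mock (horizontal axis); red points are 2-fold or more higher with ISD (1243 probes), blue points 2-fold or more lower (905 probes), grey points less than 2-fold apart, and the line marks equality. Red points spread far above the line over most of the mock range, while most blue points stay close under it.

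The sides of this change also differed in how firmly they were measured. Of the 62 genes at least 16-fold higher, 25 were not detected on mock, and the median raw intensity of the 62 was 3378 with ISD and 136.55 in mock. The 432 genes at 2- to 4-fold higher had medians of 548.45 with ISD and 268.55 in mock. The 515 genes at 2- to 4-fold lower were dim, with a median intensity of 152.4 with ISD and 315 in mock, and 184 of them were not detected with ISD. Without background correction 526 of the 695 higher genes were still 2-fold higher, and 244 of the 579 lower genes were still 2-fold lower. The 64 genes at least 4-fold lower all kept the 2-fold call without background correction, though 29 of them were not detected with ISD, and so did all 263 genes at least 4-fold higher.

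Genes with several detected probes gave a check within the pair of arrays. Where the brightest probe was at least 16-fold higher, all 34 other probes of the same 26 genes were 2-fold higher too. At 4- to 16-fold, 106 of 107 other probes were. At 2- to 4-fold higher the share was 176 of 242 (72.7%), with 235 above 0. For genes 2- to 4-fold lower it was 93 of 200 (46.5%), with 194 below 0, and for genes at least 4-fold lower 20 of 23. Probes of a gene share the RNA and the array, so this shows that the call repeats across probes and says nothing of a second culture.

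Signal level bore on both sides in different ways. The 16666 probes were put into 10 bands of equal number by the mean level of the WT arrays. The share 2-fold higher stayed between 5.76% and 9.0% over the bands. The share 2-fold lower was 11.2% in the dimmest band, 8.04% in the next, 5.28% in the fourth, 3.18% in the eighth and 0.780% in the brightest. In the dimmest band 26 of 1667 probes were detected on both arrays and the median log2 difference was -0.34; in the next band it was -0.04, and from there it moved by small steps to -0.19 in the brightest. Without background correction the shares of the dimmest band were 1.74% higher and 0.180% lower, those of the brightest band 5.64% and 0.660%, and the lower share was greatest in the sixth band, at 4.14%. The excess of 2-fold decreases among dim probes was therefore present with background correction and absent without it, while the brightest band hardly moved. The median of the dimmest band stayed negative without correction, at -0.16. Among all members 2178 probes were detected on mock alone and 489 on ISD alone. A probe detected on mock alone is likelier to read lower with ISD, and the part of this filter in the dimmest band was not tested. When probes were placed by the mean of the 4 knockout arrays, which the difference does not use, the dimmest band held 13.1% higher and 7.02% lower, and the brightest 4.38% and 0.960%.

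**Figure D2:**
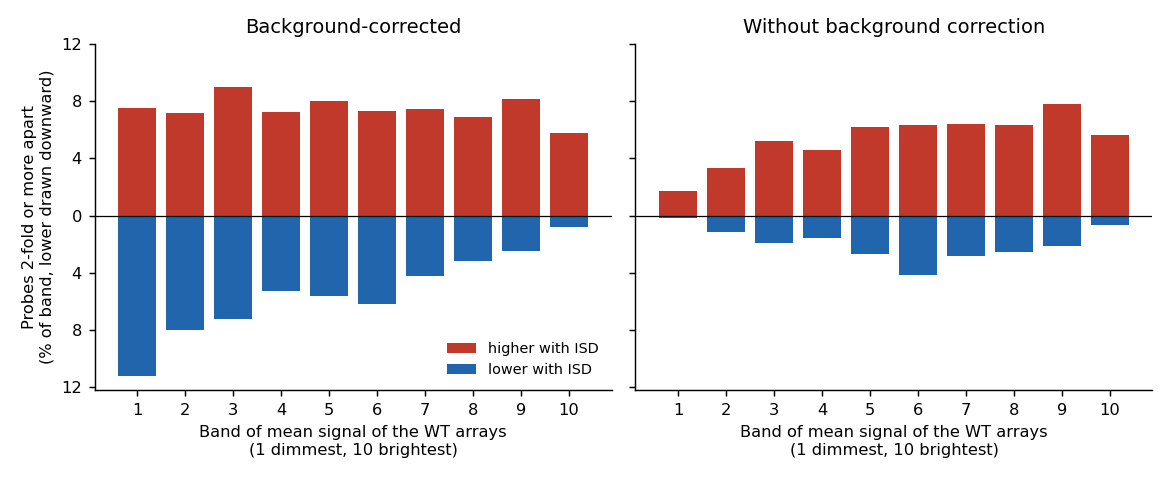
Share of probes 2-fold or more higher (red, upward) and lower (blue, drawn downward) with ISD in 10 bands of equal probe number by mean signal of the WT arrays, band 1 the dimmest, in percent of the band. The left panel uses background-corrected values, where the lower share goes from 11.2% in band 1 to 0.780% in band 10; the right panel uses the same bands without background correction, where band 1 holds 0.180% lower.

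The balance depended on the scaling as well. Over probes, 1243 were 2-fold or more higher (7.46%) and 905 lower (5.43%), so that 57.9% of the probes called were higher. Scaling every array to the same median over all probes gave 1014 higher and 1493 lower (40.4% higher) and moved the median of the measured probes to -0.29. Scaling to the median of probes detected on all 6 arrays gave 1329 and 736 (64.4% higher), with a median of -0.04. When the background was not corrected, 892 and 330 were counted (73.0% higher). Whether increases or decreases were more numerous at 2-fold was thus not fixed by these arrays, whereas at 16-fold 62 to 105 probes were higher under these settings.

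The interferon genes had the highest median of the 18 gene lists, just above the GTPases described below, and the order of these lists turned under other settings (3.45 to 4.85 for the interferons, 4.04 to 4.86 for the GTPases). Of 19 type I and III interferon genes with a probe, 12 were measured, 10 were 2-fold or more higher with ISD and none lower. The median log2 difference was 4.75 (median of all measured genes -0.15). Over all measured genes 7.31% were higher and 6.09% lower. Of the 10, 8 were not detected on mock and were measured only because they were detected with ISD. The median and its rank thus rest in part on the detection filter, which left out members detected on neither array. Ifnb1 (interferon beta, on chromosome 4) had an intensity of 25155.2 with ISD and 82.2 in mock, where it was not detected, which makes it at least 556-fold higher. Bounds given as "at least" are on the background-corrected scale and depend on that correction: the log2 difference of Gbp5, described further on, was 7.67 with it and 6.21 without it, and without it the differences of Ifnb1 and the other named genes given such a bound were smaller too. The TKO arrays read 23580.6 with ISD and 2388.3 in mock, the STKO arrays 222.4 and 80.2. The alpha interferons were dimmer: Ifna5 had 3918.3 with ISD and 57.2 in mock and was at least 84.1-fold higher, Ifna11 had 4009.9 and 64.3 (at least 86.6-fold), Ifna2 had 1924.9 and 62.6 (at least 43.1-fold) and Ifna4 had 1116.7 and 57.8 (at least 25-fold). None of these 4 was detected on WT mock or on either STKO array. Alpha interferon genes are near copies of each other, so 1 probe may read several of them, and the count of members is uncertain. Ifnz and Ifnab were below 2-fold on the brightest probe, with log2 differences of 0.54 and 0.79. A second Ifnab probe, ILMN_2770778, had log2 levels of 9.05 with ISD and 4.53 in mock, a difference of 4.52, so the Ifnab probes disagree. The 7 other genes, among them Ifnl3, Ifnk and Ifne, were detected on neither WT array.

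Promoters are shown for some genes that carry these results, to set the size of the difference beside the letters upstream of each gene. Every window printed here and below holds a match to a motif searched for. The windows of Cxcl9, Oasl1, Cmpk2, Acod1 and Irf7 (log2 differences of 8.70, 6.43, 5.94, 5.73 and 3.84) held none and are not printed. The same holds for the windows of the decreased gene Sesn1. Windows ran from 250 bases before to 50 after each annotated start in RefSeq (build GRCm38.p6), and the 250 bases before the start are printed, 5′ to 3′ on the gene's strand. Capitals mark matches to an interferon-stimulated response element core (ISRE, bound by IRF and STAT complexes), searched as GAAANNGAAA, or to a kappa B site (bound by NF-kB), searched as GGGANNTTCC, each on both strands and with overlapping matches kept. The ISRE core was found in 3.44% of all 32851 promoters and the kappa B letters in 1.47%. A match is a description of letters and does not show that a factor binds there. The Ifnb1 window (chr4:88522795-88523044, minus strand) held 1 kappa B match, first base 116 before the start, and no exact ISRE core.
Ifnb1: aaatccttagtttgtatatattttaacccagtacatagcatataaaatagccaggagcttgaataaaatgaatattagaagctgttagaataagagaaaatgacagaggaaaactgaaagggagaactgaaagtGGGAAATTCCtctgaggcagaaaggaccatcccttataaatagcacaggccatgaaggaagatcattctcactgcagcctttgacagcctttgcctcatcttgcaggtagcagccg

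Genes that act against viruses inside the cell followed. Of 35 measured interferon-stimulated antiviral effectors, 31 were 2-fold or more higher, none lower, with a median log2 difference of 2.64. Of the 31, 6 were not detected on mock and were measured through ISD alone. In TKO 10 of 35 were 2-fold higher, and in STKO 5 of 25. Over all measured genes the shares higher were 7.31% in WT, 3.75% in TKO and 0.377% in STKO. The counts of this list and of those that follow stand beside these shares. Oasl1, a relative of the oligoadenylate synthetases, had 9956.7 with ISD and 172.7 in mock, 86.4-fold higher. Mx1, a GTPase of the Mx family, had 1811.9 with ISD and 66.8 in mock, where it was not detected, at least 40.4-fold higher. Cmpk2, a mitochondrial nucleotide kinase, had 26257.5 and 501.5 (61.5-fold), and Mx2 had 4934.7 and 158.1 (49.5-fold). Rsad2 encodes viperin, which makes a chain-terminating nucleotide, and had 38861.2 with ISD and 987.1 in mock, 40.8-fold higher. On the TKO arrays Rsad2 was at 33797.5 with ISD and 38541.6 in mock, so its mock level there was already close to the WT ISD level. Isg15, a ubiquitin-like protein attached to other proteins, had 8151 with ISD and 410.5 in mock, a log2 difference of 4.52. The 4 measured members below 2-fold were Ifitm1, Ifitm2, Ifitm3 and Ifi27, with log2 differences of 0.66, 0.06, 0.45 and -0.15. The Isg15 window (chr4:156200819-156201068, minus strand) held 3 overlapping ISRE cores, 78 to 57 bases before the start, and the Rsad2 window (chr12:26456453-26456702, minus strand) held 1, on the opposite strand.
Isg15: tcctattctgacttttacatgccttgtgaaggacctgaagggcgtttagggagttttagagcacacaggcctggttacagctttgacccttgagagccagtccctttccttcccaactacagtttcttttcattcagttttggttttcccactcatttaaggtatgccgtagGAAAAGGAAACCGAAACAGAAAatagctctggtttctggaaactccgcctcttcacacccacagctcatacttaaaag
Rsad2: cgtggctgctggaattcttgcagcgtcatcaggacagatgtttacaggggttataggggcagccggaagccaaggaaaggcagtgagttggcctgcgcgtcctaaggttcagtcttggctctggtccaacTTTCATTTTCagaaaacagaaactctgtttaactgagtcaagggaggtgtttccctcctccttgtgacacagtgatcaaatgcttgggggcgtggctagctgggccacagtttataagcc

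The interferon-induced GTPases, which act on the membranes that enclose parasites and bacteria, were higher without exception among those measured. Of 13 genes with a probe 11 were measured, and all 11 were 2-fold or more higher, with a median log2 difference of 4.74. Of the 11, 3 were not detected on mock and were measured through ISD alone, so the detection filter favoured this count. In TKO 7 of 10 were higher (3.75% over all genes), and in STKO 0 of 9 (0.377% over all genes). Gbp5 had 6298.2 with ISD and 80 in mock, where it was not detected, at least 135-fold higher. Gbp2 had 37458.7 and 1372.2 (27.4-fold), Gbp3 15518.8 and 621.1 (27.5-fold), Gbp7 2462.3 and 138.8 (30.4-fold), and Igtp 15566.5 and 608.9 (28.4-fold). The last 4 had nearly equal folds at mock intensities of 138.8 to 1372.2. Members of this family are similar in sequence, so probes may share signal. The Gbp2 window (chr3:142620413-142620662, plus strand) held an ISRE core 59 to 50 bases before the start, on the opposite strand, and a kappa B match just after the start, outside the printed stretch.
Gbp2: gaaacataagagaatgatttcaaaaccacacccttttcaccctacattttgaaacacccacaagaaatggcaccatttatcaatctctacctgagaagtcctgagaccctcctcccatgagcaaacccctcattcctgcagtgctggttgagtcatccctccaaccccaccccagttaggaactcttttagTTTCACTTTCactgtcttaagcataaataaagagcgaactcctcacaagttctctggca

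Within the sensing pathway several receptors were higher, while the shared kinase Tbk1, the factor Irf3 and the adaptor Mavs were less than 2-fold apart. Of 21 measured genes of cytosolic nucleic acid sensing, 13 were 2-fold or more higher, none lower and 8 less than 2-fold apart, with a median log2 difference of 1.87. RNA sensors were among the largest increases: Ifih1 (MDA5) had 1646.3 with ISD and 126.6 in mock (23.7-fold), Ddx58 (RIG-I) 1958.5 and 301.6 (8.49-fold), Dhx58 (LGP2) 4478.5 and 595.7 (8.37-fold) and Tlr3 563.2 and 112.4 (9.58-fold). Ifi205, a DNA-binding protein of the Ifi200 family, had 1017.7 with ISD and 68.1 in mock, not detected, at least 23-fold higher. Cgas had a log2 difference of 1.87, Trex1 2.62, Sting1 1.58 and Samhd1, which degrades nucleotides, 2.43. Tbk1, Irf3 and Mavs had 0.61, -0.41 and -0.75, and the 3 subunits of RNase H2 0.17 to 0.43, all below 2-fold.

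Downstream, 11 of 16 measured interferon receptor, JAK-STAT and IRF genes were 2-fold or more higher, with a median of 1.28. Irf7, the factor that amplifies alpha interferon, had 3256.9 with ISD and 294.3 in mock (14.3-fold). Irf1 had 26052.8 and 3118.4 (8.2-fold) and Stat2 1498.5 and 306.1 (6.38-fold). The feedback inhibitors Socs1 and Socs3 were higher too, Socs1 at 379.1 with ISD and 83.3 in mock (not detected, at least 7.78-fold) and Socs3 at 6169.2 and 1036.4 (6.26-fold). The receptor genes were not called higher on their brightest probes: Ifnar2 had a log2 difference of 0.09, Ifngr1 -0.88 and Ifngr2 -1.13, the 1 gene of the list that was 2-fold lower. Other probes gave 1.00 for Ifnar2, and -0.73 and -0.68 for Ifngr2, so neither call was shared by all probes of its gene.

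Chemokines spanned the widest range of the 18 lists, with log2 differences of -0.73 to 8.70. Of 16 measured, 12 were 2-fold or more higher and none lower, median 2.47, against 9 of 16 in TKO and 3 of 15 in STKO. The shares higher over all genes were 7.31% in WT, 3.75% in TKO and 0.377% in STKO. Cxcl9, which draws T cells through the receptor CXCR3, had 33049.4 with ISD and 137.1 in mock, 415-fold higher and the largest increase among probes detected on both WT arrays. Cxcl10, a ligand of the same receptor, had 43152.6 and 496 (95.4-fold), and on the STKO arrays 1149.1 and 168.4, a log2 difference of 3.21 that was larger than its TKO difference of 0.77 (39651.4 and 24690.1). Cxcl9 by contrast had 108.1 and 98.6 on the STKO arrays and was not detected there. The monocyte chemokine Ccl12 was read by a pair of probes, 135-fold and 110-fold higher. Ccl5 had 27179.9 with ISD and 720.4 in mock (41.8-fold) and Ccl8 2417.8 and 176 (21.1-fold). Below 2-fold were Cxcl2, Ccl9, Cxcl16 and Cxcl12, with log2 differences of 0.83, 0.26, 0.02 and -0.73. The Cxcl10 window (chr5:92348890-92349139, minus strand) held an ISRE core and a kappa B match, with first bases 213 and 159 before the start.
Cxcl10: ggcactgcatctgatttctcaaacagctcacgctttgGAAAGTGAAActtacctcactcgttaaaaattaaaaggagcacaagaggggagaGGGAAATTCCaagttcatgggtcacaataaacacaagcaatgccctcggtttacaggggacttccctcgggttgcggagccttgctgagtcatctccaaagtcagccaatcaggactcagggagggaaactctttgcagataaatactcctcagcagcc

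All 14 measured cytokines and growth factors of inflammation were 2-fold or more higher, with a median of 2.56. In TKO it was 10 of 13 (3.75% over all genes) and in STKO 0 of 9 (0.377% over all genes). Of the 14, 5 were not detected on mock and were measured through ISD alone, so the detection filter favoured this full count. Another 5 genes of the list were detected on neither WT array. Il6 had 1941 with ISD and 107.2 in mock (37.4-fold), Il15, which sustains NK and memory T cells, 12926.2 and 670.4 (21.1-fold), and Il33, an alarmin, 744.5 and 137.1 (9.38-fold). Il27 and the death ligand Tnfsf10 (TRAIL) were not detected in mock and were at least 16.9-fold and 10.1-fold higher. The classical NF-kB cytokines Tnf and Il1b had log2 differences of 2.81 and 3.13. The Il6 window (chr5:30012864-30013113, plus strand) held 1 kappa B match, 44 to 35 bases before the start.
Il6: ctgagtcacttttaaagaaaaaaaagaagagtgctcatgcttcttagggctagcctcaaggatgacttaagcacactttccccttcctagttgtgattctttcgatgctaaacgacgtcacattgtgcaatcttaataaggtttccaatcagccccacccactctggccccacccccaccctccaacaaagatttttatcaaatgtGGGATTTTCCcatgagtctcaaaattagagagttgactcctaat

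Of 18 measured NF-kB pathway and target genes, 14 were 2-fold or more higher, median 1.37. Cd40, a co-stimulatory receptor, had 13722.8 with ISD and 493.3 in mock (31.9-fold) and stood well above the rest. The adhesion molecules Vcam1 (7630.8 and 629.3, 13.1-fold) and Icam1 (5455.3 and 1209.5, 4.68-fold), the inhibitor Tnfaip3 (4667.1 and 679.7, 7.55-fold) and the prostaglandin synthase Ptgs2 (246.3 and 101.7, 4.33-fold) came next. The I kappa B inhibitors were higher by less, with Nfkbia at a log2 difference of 1.21 (0.60 on another probe), Nfkbib at 1.30 and Nfkbie at 1.74. Icam1 was 2-fold higher in all 3 genotypes, with 2216.3 and 753.9 on the STKO arrays. Among immediate early genes, which respond to many stimuli quickly, Junb, Klf4 and Atf3 were 2-fold higher (2.51-fold, 2.43-fold and 2.27-fold) of 13 measured, and Fos and Dusp1 had log2 differences of -0.70 and -0.58.

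Antigen presentation on MHC class I was higher at its regulators and its peptide supply. Of 18 measured genes, 11 were 2-fold or more higher, with a median of 1.19. Nlrc5, the transactivator of class I genes, had 1641.7 with ISD and 185.6 in mock (13.3-fold), and Tap1, which pumps peptides into the endoplasmic reticulum, 1767.2 and 225.6 (11-fold). Tapbpl, the immunoproteasome subunit Psmb9 and Tap2 were 4.08-fold, 3.55-fold and 3.53-fold higher. The class I chains were split. The classical chain H2-K1 had 4725.8 and 3206.9, a log2 difference of 0.50, H2-D1 13037 and 10606.4, 0.23, and the light chain B2m 32249.8 and 27283.6, 0.18. Of the non-classical chains in the list, H2-Q6, H2-Q7 and H2-T23 were 2-fold or more higher, at 1.57, 1.30 and 1.02. The list holds further non-classical chains that are not described here, so these values do not set classical against non-classical chains.

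Cell death genes were higher at 8 of 15, median 1.08. Daxx was 13.1-fold higher (8913.9 with ISD and 723.4 in mock), the inflammatory caspases Casp4 and Casp1 10.8-fold and 3.78-fold, the death receptor Fas 5.71-fold and the necroptosis effector Mlkl 5.09-fold. The pro-survival genes Mcl1 and Bcl2l1 of this list had log2 differences of -0.66 and -0.38, below 2-fold. Other pro-survival genes, outside this list, were 2-fold or more higher: Birc2 and Birc3 at 1.56 to 1.63, and Bcl2a1d and Bcl2a1b at 1.15 to 1.29.

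**Figure D3:**
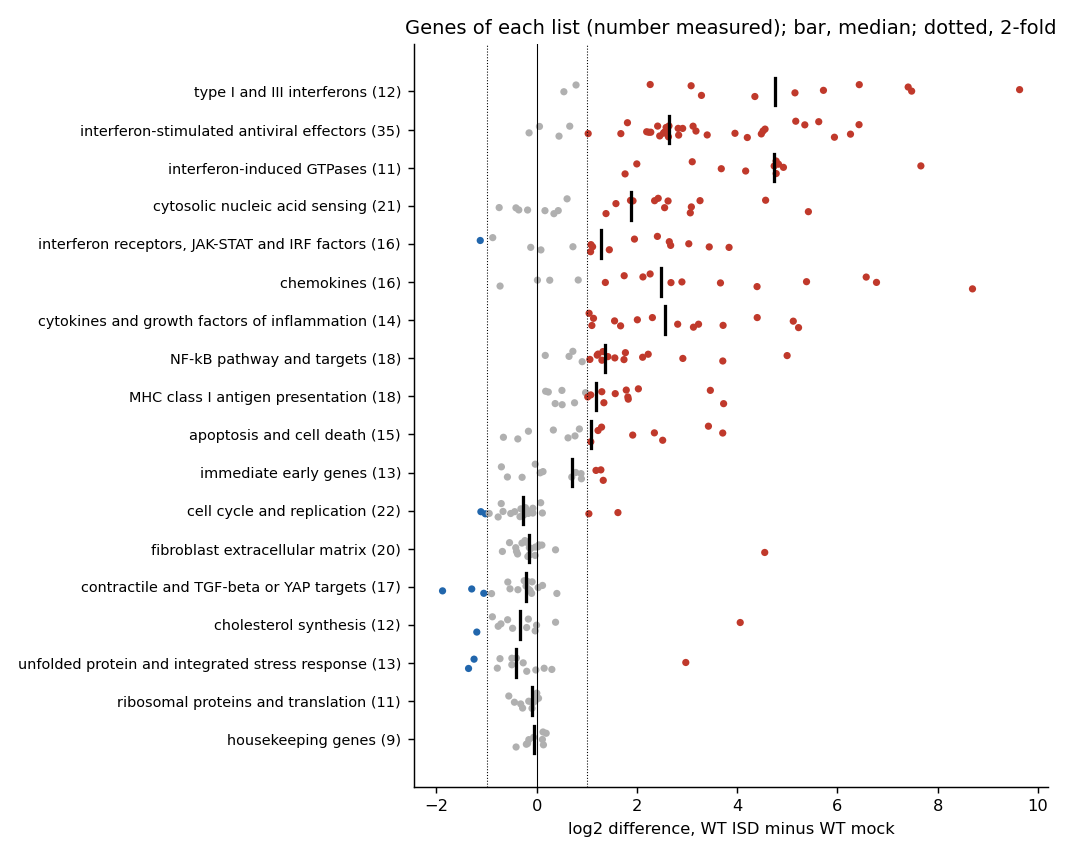
Log2 difference between WT ISD and WT mock for each measured gene of 18 gene lists, 1 point a gene; black bars mark the list's median, dotted lines 2-fold, red and blue points genes 2-fold or more higher and lower, and numbers in brackets the genes measured. The interferon and GTPase lists have medians of 4.75 and 4.74, while the cell cycle, matrix, ribosomal and housekeeping lists sit around 0. Genes not detected in mock appear only where they were detected with ISD.

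Lists outside immunity were mostly flat, with a few exceptions in some of them. These small counts stand beside 7.31% of all measured genes higher and 6.09% lower, and no list was tested against these shares. Of 22 measured cell cycle genes, the inhibitor Cdkn1a (p21) was 3.08-fold higher, with 17023.9 with ISD and 5114 in mock, and Ccne1 2.06-fold higher, while the mitotic genes Cdc20 and Aurka were 2.16-fold and 2.04-fold lower. One other Cdc20 probe had a log2 difference of -0.60. Ccne1, Cdc20 and Aurka each lost the 2-fold call under at least 1 other setting. Of 20 matrix genes, 1 was 2-fold apart, the collagenase Mmp13 at 25772.2 with ISD and 1167.5 in mock, 23.4-fold higher. The collagens Col1a1, Col1a2 and Col3a1 had log2 differences of -0.15, -0.18 and -0.54, with 0.26 on a second Col3a1 probe. The median of the matrix list was -0.15, the same as that of all genes, and its sign turned positive under another setting, as did those of the ribosomal and housekeeping lists.

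Of 17 measured contractile and TGF-beta genes, 3 were 2-fold lower and none higher, beside 6.09% lower and 7.31% higher over all genes. The list median was -0.21, beside -0.15 for all genes. The 3 were the receptor Tgfbr1 (2084.1 with ISD and 7430 in mock, 3.68-fold), its transducer Smad3 (461.6 and 1152.8, 2.45-fold) and the target Id3 (211.6 and 420.6, 2.08-fold). Id3 fell short of 2-fold without background correction. The STKO arrays held 7351.8 and 7116.8 for Tgfbr1, close to each other and to WT mock. Of 12 measured genes of cholesterol metabolism (median -0.34) 1 was 2-fold lower and 1 higher. Msmo1 was 2.29-fold lower (826.3 with ISD and 1938.3 in mock), while Sqle, Dhcr7 and Lss had log2 differences of -0.88, -0.77 and -0.71, below 2-fold. Ch25h, which makes an oxysterol that blocks viral entry and sterol synthesis, had 20158.6 with ISD and 1252.3 in mock, 16.7-fold higher. In the stress-response list (median -0.40 over 13 genes) Herpud1 was 2.56-fold lower and Chac1 2.38-fold lower, while Ppp1r15a, the phosphatase subunit that ends the integrated stress response, was 7.87-fold higher. No measured ribosomal (11) or housekeeping (9) gene was 2-fold apart on its brightest probe. Hprt had 10152.6 with ISD and 10575.5 in mock, and Actb 38493.2 and 31886.7, though other Actb probes gave log2 differences of 1.15 and -0.55.

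The largest decreases over all probes were of another size and kind. Among probes with 1 gene that were detected on both WT arrays, Gpr183, a receptor for oxysterols that Ch25h helps to make, came first, with 133.1 with ISD and 1452 in mock, 17.6-fold lower. Its intensity with ISD was not far above the detection limit of that array, where the dimmest detected probes had 115.9. Slco4a1, an organic anion transporter, had 137.5 and 1247.7 (14.0-fold). Sesn1, a stress-response regulator of nutrient signalling, was read by a pair of probes with 207.3 and 1702.9 (10.1-fold) and 429.8 and 3549 (8.92-fold). Cxcr4, the receptor of the chemokine Cxcl12, had 284.3 with ISD and 2076.4 in mock (8.33-fold). The forkhead factors Foxd1 and Foxc2 were 6.90-fold and 6.6-fold lower, Arhgef39 7.32-fold, Lhfpl2 6.85-fold and Klhl21 5.41-fold. Mbp, not detected with ISD, was the other gene at 16-fold or more lower by normalized values. The 10 probes were lower with ISD in TKO as well, by log2 differences of -0.96 to -2.36, and in STKO they ran from -0.68 to 0.49.

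The increases that led over all probes also included genes outside the lists. Cd69, an activation antigen of leukocytes, had 33361.5 with ISD and 249.7 in mock (179-fold), Acod1, which makes itaconate in activated macrophages, 15311.4 and 172.3 on its largest probe (135-fold, against 53.0-fold on its brightest), and Calhm6, a channel protein of the interferon response, 11357.2 and 256.1 (57.5-fold). Ifit2, which binds viral RNA, was 66.4-fold higher on its largest probe (a log2 difference of 6.05) and had a log2 difference of 5.17 on its brightest. The part of leukocytes in the Cd69 and Acod1 values was not tested; of the 10 macrophage markers detected on both WT arrays, 1 was 2-fold apart.

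**Figure D4:**
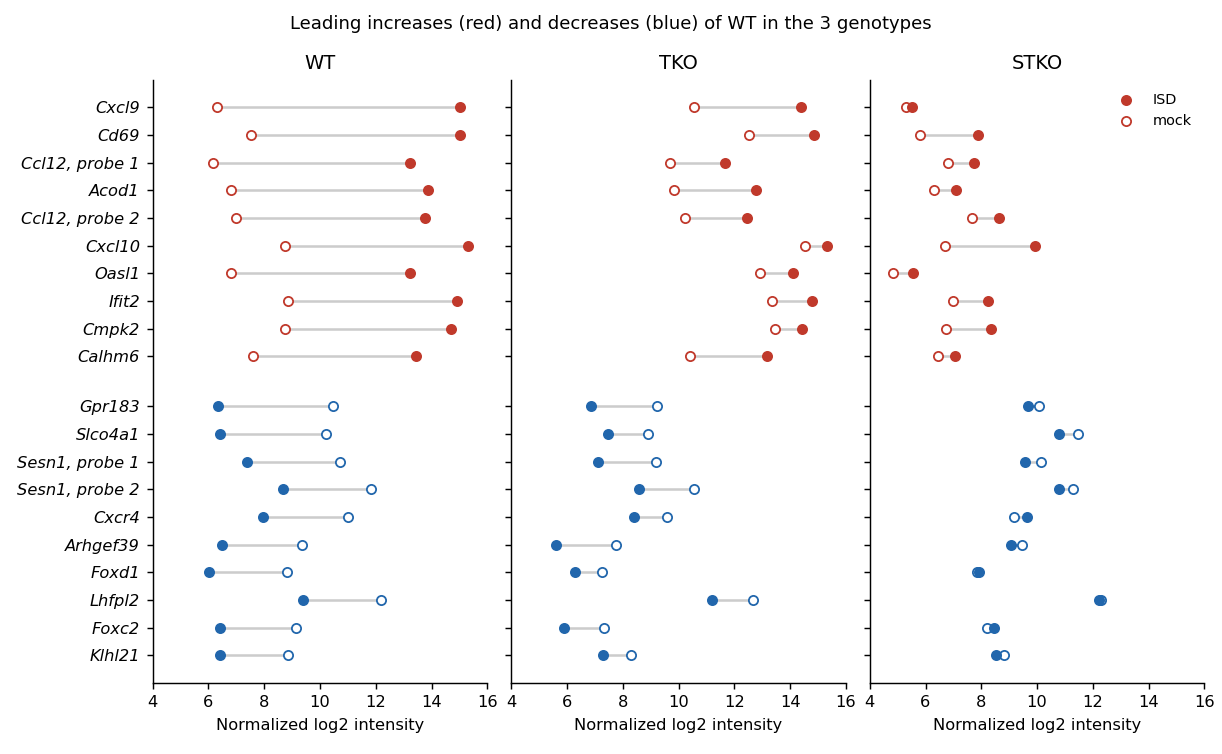
Normalized log2 intensity with ISD (filled circles) and in mock (open circles) for the 10 largest increases (red) and 10 largest decreases (blue) among named probes detected on both WT arrays, in WT, TKO and STKO cells, 1 array a circle. In WT every pair lies far apart; in TKO the open circles of several increases, such as Cxcl10 and Oasl1, already sit high, and in STKO most pairs lie close together.

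Beside the same contrast in the other genotypes, which shares no array with it, the WT response was the largest in count. TKO had 343 of 9155 genes higher (3.75%) and 147 lower (1.61%), with 4 at 16-fold or more (0.0437%). STKO had 35 of 9293 higher (0.377%) and 3 lower (0.0323%), with 0 at 16-fold or more (0.00%). The 62 genes at least 16-fold higher in WT had median log2 differences of 1.79 in TKO and 0.33 in STKO, and the 64 genes at least 4-fold lower had -1.35 and -0.25. None of these differences between genotypes could be tested with 1 array a group.

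A larger share of the higher genes than of the lower genes stood beside a neighbour that moved the same way, a difference that was not tested. Of the measured genes, 9495 were placed in RefSeq order (GRCm38.p6, measured genes alone). Of 695 higher genes, 236 (34.0%) stood in a run of 2 or more neighbours that were all higher. Of 579 lower genes, 88 (15.2%) stood in such a run of lower genes. Over all measured genes 7.31% were higher and 6.09% lower, so the sides start from unequal shares. The part in runs that a random order of genes would give was not computed, so neither percentage is read as an excess. Runs of 3 or more numbered 21 with 86 genes for the higher side and 5 with 16 genes for the lower side. The longest was on chromosome 1, 8 genes from Aim2 to Ifi205 of the Ifi200 family of DNA-binding proteins, with log2 differences of 1.78 to 5.67. Next came 7 Oas genes on chromosome 5 (1.35 to 2.63) and 6 genes from Irgm1 to Ifi47 on chromosome 11. Interferons made a pair of runs of 5 genes on chromosome 4, Ifna11 to Ifna1 and Ifnb1 to Ifna2. Of these 10 interferons, 8 were not detected on mock and were placed only because they were detected with ISD. A gene detected on neither array was not placed and could not break a run. Among all higher genes 163 of 695 were not detected on mock, and 213 of 579 lower genes were not detected with ISD. The detection filter thus favoured runs on each side. The chemokines Ccl2, Ccl7, Ccl12 and Ccl8, the guanylate-binding genes Gbp5, Gbp7, Gbp3 and Gbp2, and the antigen-processing genes Psmb9, Tap1, Psmb8 and Tap2 made runs of 4. Most of these are families of similar genes, in which probes may share signal. The longest lower run was 4 genes on chromosome 5, Gpr146 to Zfand2a.

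Promoter letters changed with the size of the difference. Of 48 genes at least 16-fold higher with a promoter in the table, 27 (56.2%) held the ISRE core and 7 (14.6%) the kappa B letters. At 4- to 16-fold higher the shares were 17.3% and 2.47% of 162 genes, at 2- to 4-fold 7.87% and 2.33% of 343, below 2-fold 3.40% and 1.49% of 6702, and in the 475 lower genes 1.26% and 1.47%. Read the other way, 82 of the 316 genes with an ISRE core were 2-fold higher (25.9%), and 471 of the 7414 without one (6.35%). These counts leave out genes detected on neither WT array. Of all 695 higher genes, 163 were measured through ISD alone, so the detection filter favoured the shares higher. A TATAAA box was found in 33.3% of the genes at least 16-fold higher and in 8.82% of those below 2-fold (13.6% of all promoters), while the E2F letters TTTCCCGC were in 2.08% and 2.42% (1.07% of all promoters). The ISRE cores of the 55 genes at least 4-fold higher that held one had a median distance of 72 bases before the start, with quartiles of 150.5 and 31 bases before it. Of the 48 genes, Gbp5, Cxcl10 and Gbp2 held both motifs, and 17 held neither, among them Cxcl9, Ccl12, Oasl1, Cmpk2 and Acod1. No match means that these exact letters are not in this window. Neighbouring family members can share promoter sequence, so the genes of a class are not independent of each other.

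**Figure D5:**
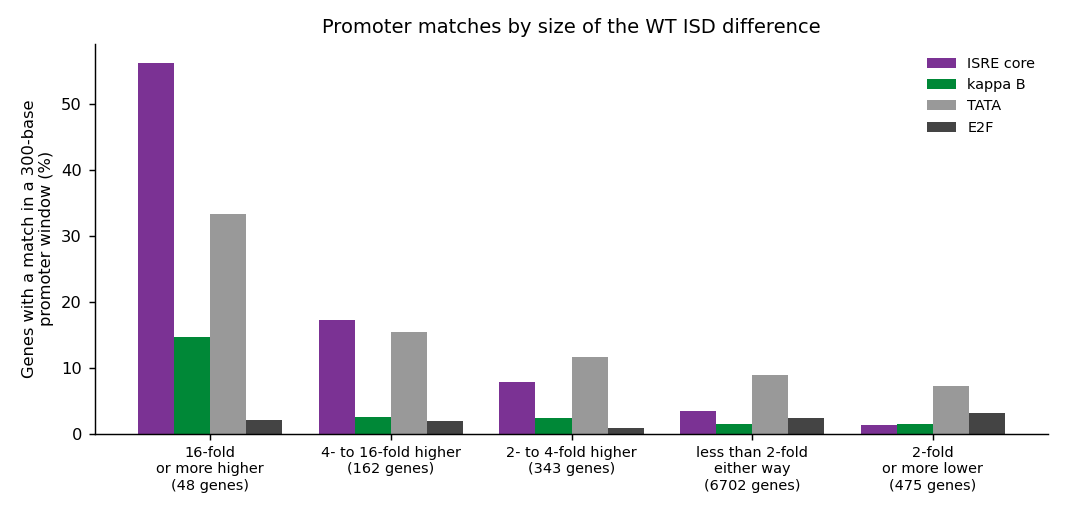
Share of genes (percent) with a match to each of 4 motifs in a 300-base promoter window, by the size of the WT difference between ISD and mock; numbers in brackets are genes with a promoter in the table. The ISRE core goes from 56.2% in the genes at least 16-fold higher to 1.26% in the genes 2-fold or more lower, and the E2F letters stay at 3.16% or less.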

How the data were processed

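Total RNA of 6 cultures was labelled with biotin and read on Illumina arrays, per the labels. The authors deposited a table of intensity values whose file name calls it non-normalized, with no background subtracted as far as the values show, and next to each intensity a detection fraction, which its header calls a p-value; it increases with signal in 943 steps, so the detection p was taken as 1 minus the fraction, under 0.01 for detected. A second deposited table holds log2 values centred on each probe's median (median 0; column medians -0.01 to 0), with normalization unstated; its WT differences correlated with differences of the log2 intensities at 0.966 across probes. No source used here names the scanner software or array version.

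Intensities were background-corrected and normalized over the 6 arrays with neqc of limma 3.58.1 in R 4.3.3 (background from the detection p, offset 16, quantile, log2). The offset shrinks differences of dim probes, whereas background correction widens them. Probes 2-fold lower numbered 905 with these settings, 435 with an offset of 50 and 330 without background correction. Later steps ran in Python 3.11.15 with pandas 2.3.3. Symbols come from the platform annotation: 34885 probes have 1, 18 several and 10378 none; probes with several were not named. A fold against an array where the probe was not detected is given as "at least", computed from the lowest level of any detected probe on the dim array, or from the probe's level where that was higher. A call is a 2-fold difference. Named genes are, for each of 18 lists, up to 5 measured members with the largest absolute difference, then the 10 largest increases and decreases among named probes detected on both arrays, and Trex1 and Sting1; others were chosen after their values were seen. The members and lists were chosen with earlier results of these data known. The counting was tried on the STKO arrays after chosen probes were multiplied by known factors. These probes were of middle intensity and detected on both STKO arrays, so dim probes were not covered. The precision is limited by the number of arrays.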

Additional observations from a re-analysis of the deposited data

Results flagged for a closer look

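Of the probes measured in both genotypes, 3 were 2-fold lower with ISD in WT and 2-fold higher with ISD in STKO; the pairs share no array and the difference between genotypes was not tested. Chac1, an enzyme that degrades glutathione and a target of the integrated stress response, had a log2 difference of -1.25 in WT (643.1 with ISD and 1551.7 in mock) and 1.04 in STKO (1576.2 and 745.8). The probe ILMN_2735350, which has no gene name in the annotation, had -2.65 in WT (197 and 1038.4) and 1.98 in STKO (3451.6 and 890.3). Spic, a macrophage transcription factor, had -1.17 in WT, where it was not detected with ISD (113.4 and 189.9), and 1.15 in STKO (258.4 and 140.3). With 1 array a group no array could be compared with others of its own group.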

How the results depend on the processing

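Increases kept their number better than decreases. The probe counts were 1243 higher and 905 lower. Lower probes numbered 330 without background correction, 335 in the series' value table, 435 with an offset of 50, 502 among probes detected on both arrays and 1493 with median scaling, and at 1.5-fold the counts were 2103 higher and 2721 lower. The higher share, 57.9%, was 73.0% without background correction, 72.8% in the value table, 69.1% with the offset of 50, 64.4% with scaling to the median of detected probes, 64.1% among probes detected on both arrays, 40.4% with median scaling and 43.6% at 1.5-fold. At 4-fold, 472 were higher and 80 lower; 304 were higher and 41 lower among probes detected on both arrays, and 23 were lower without background correction and in the value table and 35 with the offset of 50. At 16-fold, 100 were higher, and 62 without background correction, 63 in the value table and 57 among probes detected on both arrays. The median difference of -0.13 was -0.29 with median scaling and -0.017 over all probes. Of genes, 695 were higher and 579 lower; lower genes numbered 244 without background correction, 246 in the value table, 309 with the offset of 50, 366 when detected on both arrays and 926 with median scaling, and at 1.5-fold 1165 were higher and 1645 lower. Filters that keep fewer probes lower counts by construction; the other causes were not tested. Of 109 named probe entries 94 kept their side of 2-fold and their sign under every alternative. The lists' alternatives, those at gene level and the scaling to detected probes were chosen after the data were seen. No paired analysis was possible because the WT comparison has 1 array a side and no pairs of replicates. Leaving out a replicate was not possible either. The detection limit bounds the folds of the 163 higher and 213 lower genes that were not detected on 1 side.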
